A study of Mus musculus with 6 samples.

Results

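The 10 genes followed here belong to the bone morphogenetic protein (BMP) and SMAD pathway and were measured in mouse embryonic stem cells. They are the inhibitor of DNA binding genes Id1, Id2, Id3 and Id4, the signal transducers Smad1 and Smad5, the inhibitory Smad6, the ligand Bmp4, the receptor Bmpr1a and the decoy receptor Bambi. They were taken by gene symbol, and all 10 were present among the 17485 genes listed. All 10 also passed the filter on low counts, with 26 to 9313 counts per library. The cells were E14, a pluripotent line of 129/Ola background, grown on gelatin with leukaemia inhibitory factor and 15% fetal bovine serum. Treatment began 24 h after seeding. The treated groups received 250 µg/mL cycloheximide, which blocks translation elongation, in 0.007% ethanol for 3 h or 6 h, and the control group received ethanol alone for 9 h. Drug and length of exposure therefore both separate the control from the treated groups, and protein levels were not analysed here. Polyadenylated RNA was counted in 2 libraries per group, 6 in all.

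BMP ligands bind paired type I and type II receptor kinases, which phosphorylate SMAD1 and SMAD5. These join SMAD4, enter the nucleus and switch on target genes, of which the Id genes are the best known. ID proteins carry a helix-loop-helix domain but no DNA-binding region, and they hold E proteins such as TCF3 away from DNA. In mouse embryonic stem cells kept with leukaemia inhibitory factor, BMP from serum and the ID proteins it induces are known to restrain neural differentiation. SMAD6 and BAMBI act as feedback inhibitors of the pathway.

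The libraries held 9.39e+06 to 2.74e+07 counts, and the 6 h libraries were the deepest. Mitochondrial genes supplied 24.8% ± 0.135 of the counts in control, against 19.3% ± 0.520 after 3 h and 17% ± 0.595 after 6 h (SD, n = 2 each), and leaving them out changed none of the 30 direction and threshold readings of the 10 genes. All 12 embryonic stem cell markers checked were detected in every library, with summed levels of 6260 to 8860 CPM, edgeR's library-size-normalised counts, with library sizes adjusted by the trimmed mean of M-values (TMM). Pou5f1, a defining pluripotency factor, stood at 125 to 152 CPM and Sox2 at 2281 to 3956 CPM. At 6 h 5 of the 12 were called lower (Zfp42, Tfcp2l1, Utf1, Dppa5a and Fgf4) and the median log2 fold change of the 12 was -0.354, while with library size alone 3 were lower and 1 higher. At 3 h Sox2 was called higher and Tfcp2l1 lower. Markers of fibroblasts, primitive endoderm, mesoderm, neural ectoderm and trophectoderm summed to 68.9 to 167, 56.5 to 105, 5.86 to 14.4, 146 to 342 and 39.8 to 61.8 CPM. The fibroblast sum, mostly Vim, went from 160 and 167 CPM in control to 68.9 and 73.3 CPM at 6 h, and the neural sum, mostly Tubb3, from 342 and 330 CPM to 146 and 153 CPM. Single markers were called in both directions at 6 h, with Nes, Pdgfrb, Gata3 and Tfap2c higher and Vim, Tubb3, Krt8, Sox7 and Lama1 lower. The part of these markers in the results was not tested. On the TMM scale the 3 h and 6 h log2 fold changes had medians of 0.02 and 0.04 over the tested genes. Scaling by library size alone moved them to 0.25 and 0.40, so every change below is relative to the TMM scale.

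Sequence before the start sites of 4 genes is shown because Id2, Id3 and Id4 rose while Bmp4 fell. They come from RefSeq start sites on GRCm38.p6, and the 250 bases before each start were searched. Capitals mark GGCGCC, the GC-rich element that SMAD1 and SMAD5 are known to bind, GTCTG or its reverse complement CAGAC, the SMAD-binding element, and the E-boxes CACGTG and CAGCTG. Both strands were read, and TATAAA was also searched. Bases annotated as exon in GENCODE M21 were left out for Id2, and for Id3, whose whole window is exonic there, only 2 sites of 25 bases are given. The printed Id2 bases precede the RefSeq start but lie inside the GENCODE gene (25093799 to 25097140), between its exons. By that annotation they are intronic.
Id2 (chr12:25096254-25096342, minus strand): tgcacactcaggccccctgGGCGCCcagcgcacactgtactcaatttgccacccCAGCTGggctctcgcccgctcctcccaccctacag
Id3, distal site (chr4:136143645-136143669, plus strand): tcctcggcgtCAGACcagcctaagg
Id3, proximal site (chr4:136143744-136143768, plus strand): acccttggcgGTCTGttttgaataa
Id4 (chr13:48260866-48261115, plus strand): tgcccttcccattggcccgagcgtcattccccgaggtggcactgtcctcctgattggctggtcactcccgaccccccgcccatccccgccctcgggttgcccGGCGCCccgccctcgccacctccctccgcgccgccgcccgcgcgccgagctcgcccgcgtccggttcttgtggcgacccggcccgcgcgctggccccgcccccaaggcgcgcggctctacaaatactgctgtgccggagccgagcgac
Bmp4 (chr14:46390670-46390919, minus strand): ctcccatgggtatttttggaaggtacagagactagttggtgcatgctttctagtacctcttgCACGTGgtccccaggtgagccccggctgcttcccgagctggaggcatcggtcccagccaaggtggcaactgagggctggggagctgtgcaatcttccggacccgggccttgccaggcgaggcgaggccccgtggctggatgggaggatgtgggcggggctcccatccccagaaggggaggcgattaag

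The promoter table matched 8 of the 10 genes, and Id1 and Bambi had no entry. GGCGCC was found for 4 of the 8 (Id2, Id4, Smad5 and Bmpr1a), in 4 of their 10 windows of 250 bases because Smad5 has several starts, against 9.59% of all 32851 windows. By GENCODE M21 the Smad5 and Bmpr1a matches, like that of Id2, lie inside the annotated gene, and only that of Id4 lies before it. The windows of the 8 genes were 60% to 78.8% G and C, against a median of 52.4% for all windows, and the part of base composition was not tested. The SMAD-binding element was found for Id3 and Smad5, in 2 of the 10 windows, against 42.2% of windows. These matches too lie inside the annotated genes. CACGTG (6.02% of windows) was found for Bmp4 and CAGCTG (13% of windows) for Id2, while TATAAA (12.4% of windows) was found for 0 of the 8. A match is a string of letters and not a measured binding site. The genes that carried GGCGCC included 2 that rose and 1 that fell at 6 h.

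Which of these transcripts differ between cycloheximide-treated and control cultures was asked first at 3 h. Id2, Id3 and Id4 rose and Bmp4 fell, while Id1 did not pass the test. These were 4 of the 10 genes (edgeR quasi-likelihood test, Benjamini-Hochberg adjusted p under 0.05 over 12755 tested genes). Over all tested genes 4.9% were called at 3 h, 3.6% as higher and 1.3% as lower. With library size alone the calls over all genes split into 1316 higher and 57 lower, against 459 and 166 on the TMM scale, and those of the 10 genes into 4 higher and 0 lower, with Smad1 called and Bmp4 not. Control and 3 h libraries had no overlap in level for 9 of the 10 genes, against 53.2% of all tested genes. The median log2 fold change of the 10 was 0.62.

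At 6 h, 8 of the 10 were called. Id2, Id3, Id4, Smad1 and Bambi were higher, and Id1, Bmp4 and Bmpr1a were lower. Over all tested genes 29% were called at 6 h, 14.8% as higher and 14.3% as lower. With library size alone the split over all genes was 3671 higher and 496 lower, against 1883 and 1821 on the TMM scale, and that of the 10 genes was 6 higher and 2 lower, with Smad5 called and Bmpr1a not. The libraries did not overlap for 9 of the 10 genes, against 66.8% of all tested genes, and the median log2 fold change of the 10 was 0.72. Both comparisons use the same control libraries, so they are not independent of each other. Because each library was treated as a whole culture, fewer cells that express a gene and less RNA per cell cannot be told apart.

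**Figure D1:**
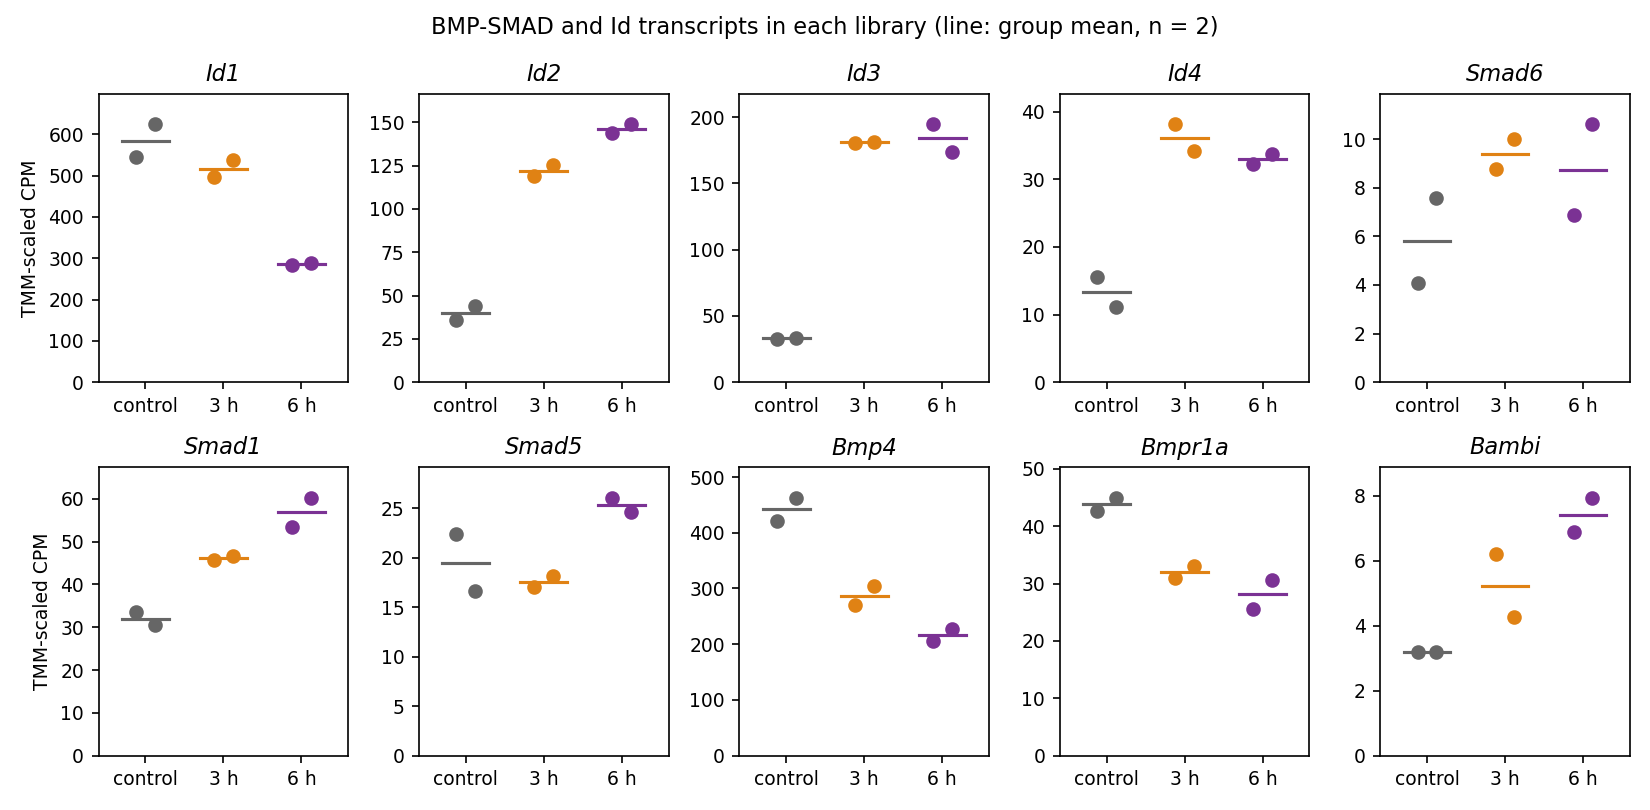
TMM-scaled CPM (vertical axes, each starting at 0) of the 10 genes in each library of control, 3 h and 6 h cultures; points are libraries and lines are group means (n = 2). Id2, Id3 and Id4 stand above control at both times, from at most 44.1, 33.5 and 15.6 CPM in control to at least 119, 174 and 32.2 CPM with cycloheximide, and Id1 drops to 282 and 288 CPM at 6 h.

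Id3 (chromosome 4, 136143497 to 136145755, plus strand, GRCm38) had the largest change of the 10 at both times. Its level was 32.8 and 33.5 CPM in the control libraries, 181 and 181 CPM at 3 h, and 194 and 174 CPM at 6 h. Every treated library stood far above every control library. The increase was 5.46-fold at 3 h, a log2 fold change of 2.45 ± 0.12 (SE; edgeR adjusted p = 4.53e-05). At 6 h it was 5.56-fold, a log2 fold change of 2.48 ± 0.12 (SE; edgeR adjusted p = 2.31e-05). Between 3 h and 6 h the log2 difference was 0.03, with a 95% interval from -0.23 to 0.28, and it did not pass (edgeR adjusted p = 0.929). Only 2.04% of tested genes had a higher log2 fold change than Id3 at 3 h, and 3.5% at 6 h.

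Id2 (chromosome 12, 25093799 to 25097140, minus strand), another ID family member, stood at 36.1 and 44.1 CPM in control. It reached 119 and 125 CPM at 3 h and 144 and 149 CPM at 6 h. The 3 groups did not overlap, and both 6 h libraries lay above both 3 h libraries. The increase was 3.05-fold at 3 h (log2 fold change 1.61 ± 0.14 SE; edgeR adjusted p = 0.000517) and 3.66-fold at 6 h (1.87 ± 0.14 SE; edgeR adjusted p = 0.000104). The further difference of 0.26 on the log2 scale from 3 h to 6 h did not pass, with a 95% interval from -0.03 to 0.55 (edgeR adjusted p = 0.328).

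Id4 (chromosome 13, 48261228 to 48266026, plus strand) was measured at 15.6 and 11.1 CPM in control, 38.1 and 34.2 CPM at 3 h, and 32.2 and 33.8 CPM at 6 h. Treated libraries were all above the controls, and both 6 h libraries were below both 3 h libraries. The log2 fold change was 1.42 ± 0.19 at 3 h (SE; edgeR adjusted p = 0.00621) and 1.29 ± 0.19 at 6 h (SE; edgeR adjusted p = 0.00245). The 3 h call was lost without 3 h replicate 1 (adjusted p = 0.0573, the highest of 18 alternatives, the lowest being 3.87e-10). The annotation places 2 non-coding genes on the opposite strand of Id4. The strandedness of the counting is not given in the sources used here, so reads of Id4 and of these genes cannot be told apart.

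Id1 (chromosome 2, 152736251 to 152737410, plus strand), the target most often used to read out BMP signalling, went the other way. It stood at 544 and 624 CPM in control, 496 and 538 CPM at 3 h, and 282 and 288 CPM at 6 h. The 3 h libraries lay just below the control libraries, and the 6 h libraries were far below both. At 3 h the log2 difference was -0.18, with a 95% interval from -0.42 to 0.07 (edgeR adjusted p = 0.349), and with library size alone it was 0.05. At 6 h the level was 2.05-fold lower, a log2 fold change of -1.03 ± 0.11 (SE; edgeR adjusted p = 0.000628). With library size alone the 6 h value was -0.68, still called.

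Id1 was also the single gene of the 10 called between the treatment times, with a log2 fold change from 3 h to 6 h of -0.86 ± 0.11 (SE; edgeR adjusted p = 0.00988). In that comparison 1.64% of tested genes were called, 0.455% as higher and 1.18% as lower, and with library size alone the split was 121 higher and 93 lower against 58 and 151. Its call was lost without 3 h replicate 1, 3 h replicate 2, 6 h replicate 1 or 6 h replicate 2, when 14 to 28 genes were called in all. The adjusted p then ranged from 0.0812 to 0.118, against 2.16e-09 to 0.118 over all alternatives, and the log2 values were -0.91 to -0.80. The libraries did not overlap between 3 h and 6 h for 8 of the 10 genes, against 54.1% of all tested genes.

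**Figure D2:**
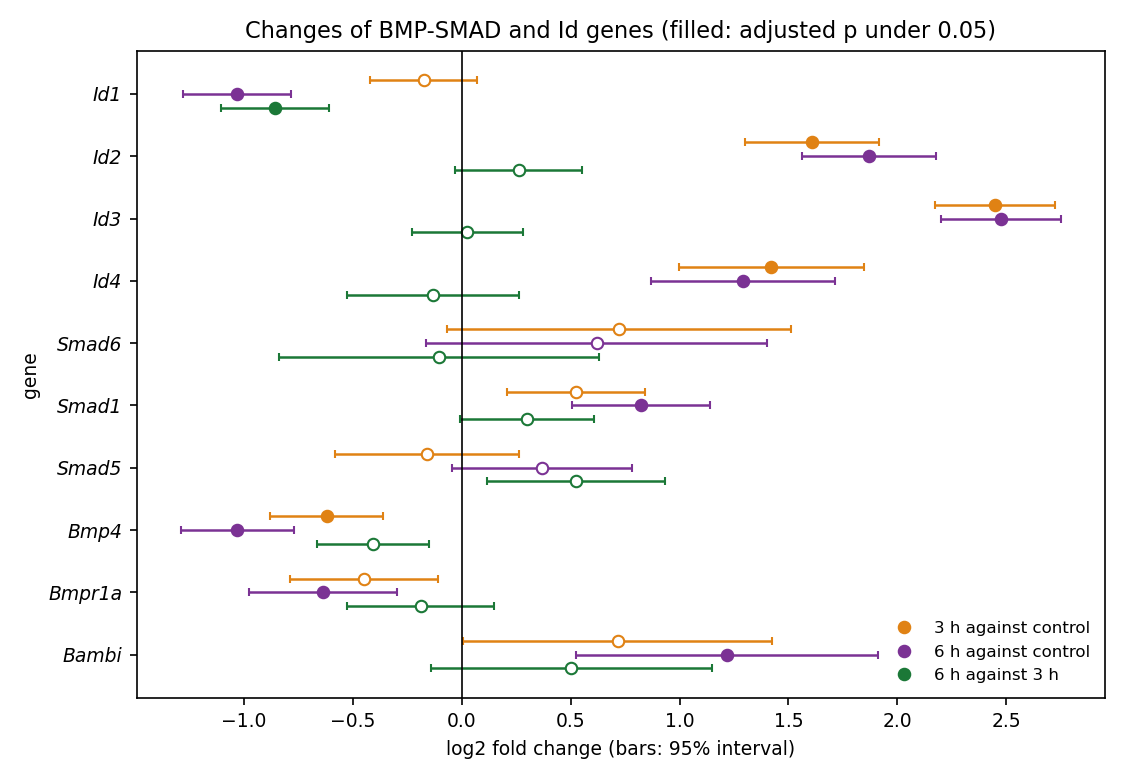
Log2 fold changes (horizontal axis) of the 10 genes in the 3 comparisons, with 95% intervals from the edgeR fit (n = 2 libraries per group); filled points passed an adjusted p of 0.05. Id3, Id2 and Id4 lie to the right of 0 at both times with overlapping intervals for 3 h and 6 h, whereas the 6 h interval of Id1 runs from -1.28 to -0.79.

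The make-up of the family's counts changed at both times, although against control Id1 was called only at 6 h. Of the summed Id1 to Id4 counts, Id1 supplied 86.6% and 87.6% in the control libraries, 59.5% and 61.2% after 3 h, and 43.3% and 44.7% after 6 h. The share from Id3 went from 5.22% and 4.70% in control to 21.7% and 20.6% after 3 h and 29.8% and 27.0% after 6 h. In the same order, Id2 supplied 5.97% ± 0.310, 14.3% ± 0.0104 and 22.6% ± 0.776 (SD, n = 2 each), and Id4 2.02% ± 0.646, 4.23% ± 0.480 and 5.09% ± 0.216 (SD, n = 2 each). These are shares of counts and not of molecules. The annotated exons cover 1160 bases for Id1, 2438 for Id2, 1791 for Id3 and 3849 for Id4. Whether counts depend on that length is not given in the sources used here.

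A ratio of 2 genes within a library does not depend on how libraries are scaled. For each Id1 count there were 0.0603 and 0.0536 Id3 counts in control, 0.364 and 0.337 after 3 h, and 0.688 and 0.604 after 6 h. The 3 groups did not overlap, and the order was control, 3 h and 6 h. Id2 per Id1 followed the same order, at 0.0685 ± 0.00300, 0.236 ± 0.00488 and 0.513 ± 0.00620 (SD, n = 2). Summed over the 4 genes, the level was 671 ± 59.3 CPM in control, against 856 ± 31.8 CPM after 3 h and 648 ± 5.90 CPM after 6 h (SD, n = 2 each). The 6 h sums of 653 and 644 CPM fell between the control sums of 629 and 713 CPM. With 2 libraries against 2, an exact two-sided permutation test cannot go below p = 0.333, so no test is given for these ratios and sums.

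**Figure D3:**
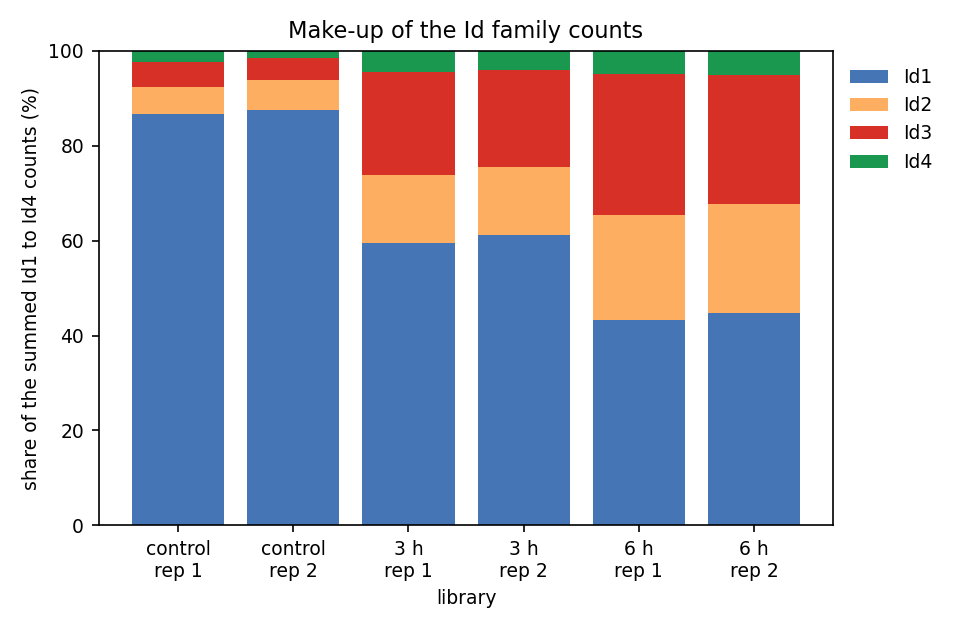
Share of the summed Id1 to Id4 counts (vertical axis, percent) supplied by each gene in the 6 libraries (horizontal axis). The Id1 part shrinks from 86.6% and 87.6% in control to 43.3% and 44.7% at 6 h, and the Id3 part grows to 29.8% and 27.0%.

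Among the transducers, Smad1 (chromosome 8, 79338395 to 79399518, minus strand) rose. Its level was 33.6 and 30.4 CPM in control, 45.6 and 46.7 CPM at 3 h, and 53.5 and 60.2 CPM at 6 h, with no overlap between the 3 groups. The 6 h increase was 1.77-fold (log2 fold change 0.83 ± 0.14 SE; edgeR adjusted p = 0.00436). The 3 h log2 difference of 0.52 ± 0.14 (SE) missed the threshold (edgeR adjusted p = 0.069), but with library size alone it was 0.75 and called (adjusted p = 0.0155). Smad5 (chromosome 13, 56703010 to 56742377, plus strand), the closely related transducer, stood at 22.4 and 16.6 CPM in control, 17.0 and 18.1 CPM at 3 h, and 26.0 and 24.6 CPM at 6 h. The 3 h libraries of Smad5 fell within the range of the controls, and the 6 h libraries lay above it. No comparison of Smad5 passed (edgeR adjusted p = 0.638 at 3 h, 0.163 at 6 h and 0.173 between them). Whether Smad1 and Smad5 differ in response was not tested.

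Of the upstream parts, Bmp4 (chromosome 14, 46383520 to 46390669, minus strand), the ligand, fell. It stood at 422 and 462 CPM in control, 271 and 304 CPM at 3 h, and 206 and 227 CPM at 6 h. The groups did not overlap and were ordered control, 3 h, 6 h. The level was 1.54-fold lower at 3 h (log2 fold change -0.62 ± 0.11 SE; edgeR adjusted p = 0.0223) and 2.04-fold lower at 6 h (-1.03 ± 0.11 SE; edgeR adjusted p = 0.000772). The 3 h call was lost without control replicate 2, 3 h replicate 1 or 3 h replicate 2, and with library size alone, where the value was -0.39 (adjusted p 0.0671, range over the alternatives 5.32e-05 to 0.155). Gm15217, which overlaps Bmp4 on the opposite strand, had at most 8 counts in a library, and an antisense gene also overlaps it.

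Bmpr1a (chromosome 14, 34410734 to 34503341, minus strand), a type I receptor for BMP4, stood at 42.7 and 44.9 CPM in control, 31.0 and 33.1 CPM at 3 h, and 25.6 and 30.6 CPM at 6 h. Both treated groups lay below the controls. At 6 h it was 1.56-fold lower (log2 fold change -0.64 ± 0.15 SE; edgeR adjusted p = 0.0146), and the 3 h log2 difference of -0.45 ± 0.15 (SE) did not pass (edgeR adjusted p = 0.112). The 6 h call was lost without 6 h replicate 1 (-0.52, adjusted p = 0.11) and with library size alone (-0.28, adjusted p = 0.188, the highest over the alternatives, the lowest being 0.00215). One antisense gene overlaps Bmpr1a.

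The feedback inhibitors had the fewest counts. Bambi (chromosome 18) stood at 3.18 and 3.18 CPM in control, 6.20 and 4.27 CPM at 3 h, and 6.89 and 7.93 CPM at 6 h, from 43 and 26 counts in the controls. Both 6 h libraries were above all others. Its 6 h increase was 2.33-fold (log2 fold change 1.22 ± 0.30 SE; edgeR adjusted p = 0.0189). That call was lost without 6 h replicate 1 or 6 h replicate 2 (adjusted p = 0.0657 and 0.116, range over the alternatives 0.00309 to 0.116). The annotation lists 1 processed copy named after Bambi, so its counts are uncertain if shared reads were split. Smad6 (chromosome 9, 63953076 to 64022059, minus strand) stood at 4.07 and 7.57 CPM in control, 8.78 and 9.99 CPM at 3 h, and 6.89 and 10.6 CPM at 6 h. The control libraries differed most for this gene, and the 6 h libraries overlapped them. No comparison of Smad6 passed, with log2 differences of 0.72 at 3 h (95% interval -0.07 to 1.51; edgeR adjusted p = 0.239) and 0.62 at 6 h (-0.16 to 1.40; edgeR adjusted p = 0.209). Without control replicate 2 the 6 h value was 1.10 (adjusted p 0.0492, range over the alternatives 0.0492 to 0.708).

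The rest of the pathway was read from 7 lists of other ligands, receptors, SMADs, modulators, regulators, targets and helix-loop-helix partners. Of their 115 genes, 104 were listed in the files and 76 were tested. At 3 h 6 of the 76 were called, 5 higher and 1 lower, and at 6 h 27 were called, 16 higher and 11 lower. With library size alone the splits were 13 higher and 1 lower at 3 h and 24 higher and 3 lower at 6 h. Those shares, and those of each list below, are to be read against the 4.9% and 29% of all tested genes. Their median log2 fold changes were 0.17 at 3 h and -0.04 at 6 h, against 0.02 and 0.04 for all tested genes. Between 6 h and 3 h 5 of the 76 were called, all of them lower. Over all tested genes 1.64% were called in that comparison, 0.455% as higher and 1.18% as lower. Of these 38 calls 8 were kept in every alternative and 30 were lost in at least 1, and 0 changed direction. The 8 were Junb at 3 h and from 3 h to 6 h, and Acvr1, Fst, Ski, Dlx2, Gata3 and Hes1 at 6 h.

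Of the 4 other ligands tested, 1 was called at 6 h. Bmp7 stood at 1.18 and 0.977 CPM in control and 4.25 and 4.98 CPM at 6 h (log2 fold change 2.07 ± 0.41 SE; edgeR adjusted p = 0.00754), and the call was lost without 6 h replicate 2 (adjusted p = 0.0595, range 0.000138 to 0.0595). Of 10 other receptors and co-receptors, 3 were called at 6 h, 2 higher and 1 lower. Acvr1, which encodes the type I receptor ALK2, rose by 1.54 ± 0.23 (log2, SE; edgeR adjusted p = 0.00288), from 28.7 and 48.0 CPM in control to 102 and 119 CPM. Bmpr2, the type II receptor, had a log2 fold change of -0.98 ± 0.29 (SE; edgeR adjusted p = 0.037), a call lost in 6 of 18 alternatives, among them leaving out control replicate 2, 3 h replicate 1, 6 h replicate 1 or 6 h replicate 2 (adjusted p up to 0.19). Rgma, a co-receptor, held 0 and 3 counts in the control libraries and 84 and 61 at 6 h, so no fold is given for it. Its call (edgeR adjusted p = 0.0172) was lost without 6 h replicate 1 or 6 h replicate 2 (adjusted p up to 0.09). Among receptors Bmpr1a and Bmpr2 were thus lower and Acvr1 higher on the TMM scale, but with library size alone the 3 of the 10 that were called were all higher and neither Bmpr1a nor Bmpr2 was called.

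Of the 4 other SMADs tested, 1 was called, and that between the treatment times. With library size alone 1 of the 4 was called higher at 3 h and 1 lower between the times. Smad7, an inhibitory SMAD related to Smad6, stood at 69.0 and 51.2 CPM in control, 109 and 86.3 CPM at 3 h, and 37.9 and 45.0 CPM at 6 h. Its log2 fold change was 0.70 ± 0.19 at 3 h (SE; edgeR adjusted p = 0.0697), -0.54 ± 0.19 at 6 h (SE; edgeR adjusted p = 0.0611) and -1.24 ± 0.19 from 3 h to 6 h (SE; edgeR adjusted p = 0.0204). The last call was lost without any 1 of the 4 treated libraries, as were those of Ski and Hes1 between the treatment times (adjusted p up to 0.157, 0.158 and 0.137). Of 9 extracellular modulators tested, 3 were called at 6 h. Fst, the activin and BMP binding protein follistatin, rose at 3 h (log2 fold change 1.37, edgeR adjusted p = 0.0304) and 6 h (log2 fold change 1.498, edgeR adjusted p = 0.00563). Dand5, a secreted antagonist, rose at 6 h by 1.69 (edgeR adjusted p = 0.0202), and Fstl1 fell by 0.70 (edgeR adjusted p = 0.0138). The 3 h call of Fst was lost in 8 of 18 alternatives, among them leaving out control replicate 2 or any 1 of the 4 treated libraries (adjusted p up to 0.162). The calls of Dand5 and Fstl1 were lost without 6 h replicate 1 or 6 h replicate 2, and also without control replicate 2 and control replicate 1 respectively (adjusted p up to 0.109 and 0.0957). With library size alone Fstl1 was not called (adjusted p = 0.144).

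Intracellular regulators had 9 of 23 genes called at 6 h, 3 higher and 6 lower. Ski, a co-repressor of SMADs, stood at 107 and 112 CPM in control, 98.8 and 99.0 CPM at 3 h, and 54.7 and 58.3 CPM at 6 h. Its log2 fold change was -0.96 ± 0.12 at 6 h (SE; edgeR adjusted p = 0.00119) and -0.81 ± 0.12 from 3 h to 6 h (SE; edgeR adjusted p = 0.0155). Its relative Skil moved the other way, by 0.80 at 6 h (edgeR adjusted p = 0.00576). Ppm1a, a phosphatase, and Zfp423, a SMAD partner, had log2 fold changes of -0.56 and -0.89 at 6 h (edgeR adjusted p = 0.00725 and 0.00801). With library size alone the calls of Ppm1a and Zfp423 were lost (adjusted p = 0.175 and 0.0533), and 5 regulators were called higher and 2 lower. Without 6 h replicate 2 those of Skil and Ppm1a were lost (adjusted p = 0.0542 and 0.0656), and without 6 h replicate 1 that of Zfp423 (adjusted p = 0.0595). The single regulator called at 3 h was Tob1, named after its values were seen, with a log2 fold change of -0.93 (edgeR adjusted p = 0.0105), lost without 3 h replicate 1 or 3 h replicate 2 (adjusted p up to 0.0931).

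Other reported BMP targets had 4 of 18 genes called at 3 h, all higher, and 9 at 6 h, 7 higher and 2 lower. The median of the list was 0.79 at 3 h and 0.45 at 6 h. Dlx2, a homeobox gene, had 0 counts in both control libraries, 56 and 32 at 3 h, and 124 and 52 at 6 h. Taking 3 counts per control library as the floor, it was at least 9.28-fold higher at 3 h and at least 10.3-fold higher at 6 h (edgeR adjusted p = 0.0202 and 0.00445), and with these bounds the list medians were the same. Its 3 h call was lost without 3 h replicate 1 or 3 h replicate 2 (adjusted p up to 0.0896) and by limma-voom (adjusted p = 0.0683). Gata3 and Tfap2c, which are also trophectoderm markers, rose at 6 h by 2.52 and 1.19 on the log2 scale (edgeR adjusted p = 0.00479 and 0.0119), the second call being lost without 6 h replicate 2 (adjusted p = 0.0743). Gata3 held only 21 and 5 counts in the control libraries and 186 and 186 at 6 h, and its 6 h log2 value ranged from 2.09 to 3.42 over the alternatives. The other targets called at 3 h were Junb, Tbx3 and Klf4, named after their values were seen. Without 3 h replicate 1 or 3 h replicate 2 the calls of Tbx3 and Klf4 were lost (adjusted p up to 0.172 and 0.156), and that of Tbx3 also without control replicate 2, 6 h replicate 1 or 6 h replicate 2 and from the 4 libraries compared. Junb stood at 69.2 and 80.6 CPM in control, 235 and 224 CPM at 3 h, and 75.1 and 69.8 CPM at 6 h, and it fell by 1.67 from 3 h to 6 h (edgeR adjusted p = 0.000987).

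Hes1, a helix-loop-helix repressor on 2 of the lists, stood at 270 and 273 CPM in control, 203 and 210 CPM at 3 h, and 119 and 104 CPM at 6 h. The 6 h log2 fold change was -1.28 ± 0.11 (SE; edgeR adjusted p = 0.00029) and that from 3 h to 6 h -0.89 ± 0.11 (SE; edgeR adjusted p = 0.00995). Of the 11 partners and other helix-loop-helix genes tested, 3 were called at 6 h, 1 higher and 2 lower, against 29% of all tested genes. With library size alone 5 of the 11 were called, 4 higher and 1 lower. Tcf3, an E protein bound by ID proteins, had a log2 fold change of -0.65 ± 0.21 (SE; edgeR adjusted p = 0.0488), and Ascl2 one of 1.46 ± 0.30 (SE; edgeR adjusted p = 0.0094). The call of Tcf3 was lost in 9 of 18 alternatives, among them library size alone (adjusted p = 0.318) and leaving out control replicate 2 or any 1 of the 4 treated libraries (adjusted p up to 0.244), and that of Ascl2 without 6 h replicate 2 (adjusted p = 0.0614).

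**Figure D4:**
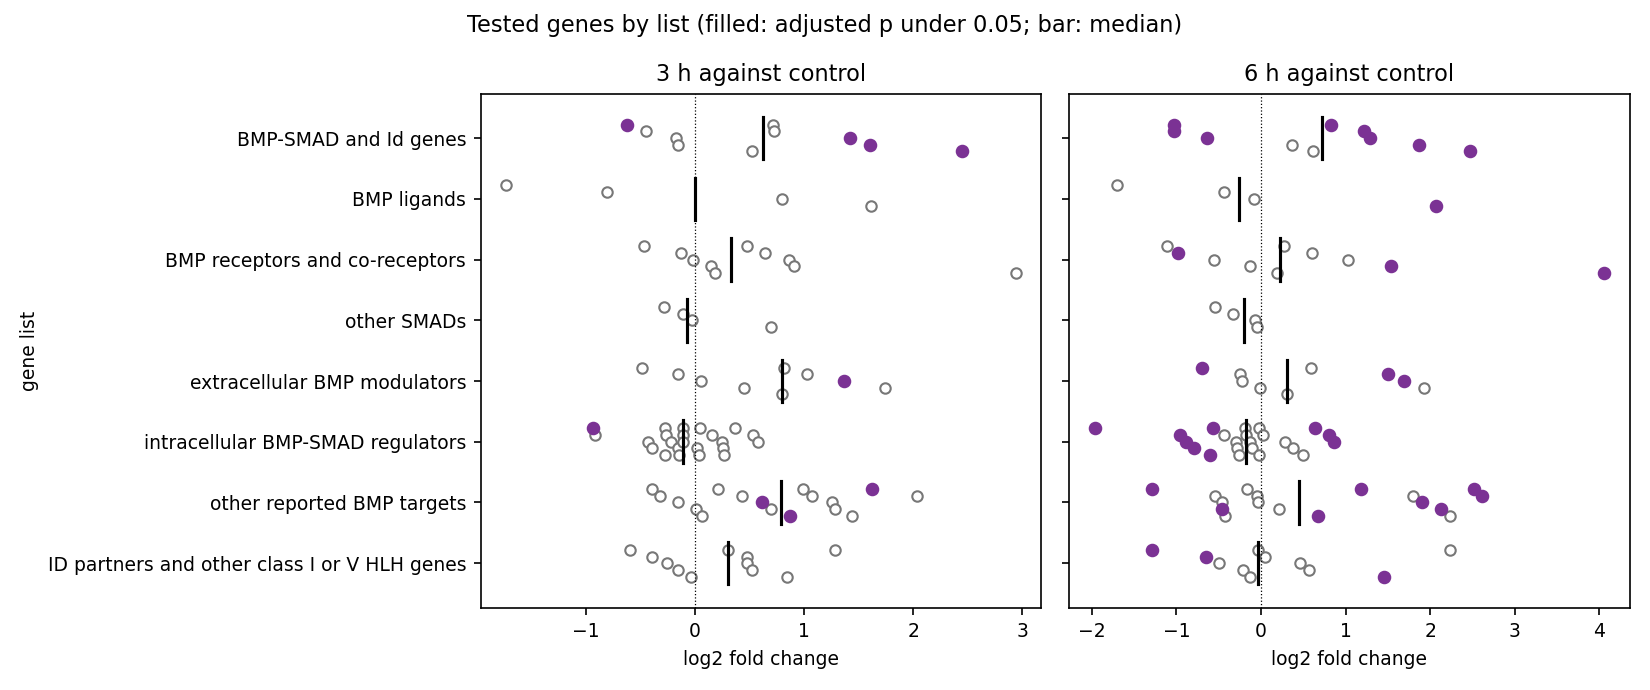
Log2 fold changes against control (horizontal axes) of the tested genes in each list (vertical axis) at 3 h and 6 h; filled points passed an adjusted p of 0.05 and bars are medians. Dlx2 enters the median but has no point because its controls were at 0. The 10 genes have medians of 0.62 and 0.72, and at 6 h the regulators show 3 filled points above 0 and 6 below it on the TMM scale, against 5 and 2 with library size alone.

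Genes with the course most like Id1, Id2 and Id3 were ranked among 5472 genes with a mean of at least 20 CPM, by the root mean square difference of log2 CPM centred on the control mean over the 6 libraries. Nearest to Id1 were Ctage5 (0.0628) and Ski (0.0699). Nearest to Id2 were Gadd45a (0.100) and 6820431F20Rik (0.203), and nearest to Id3 were Arrdc3 (0.0771) and Alkbh1 (0.222). Arrdc3 stood at 17.5 and 18.2 CPM in control, 89.5 and 97.2 CPM at 3 h, and 109 and 103 CPM at 6 h. These are descriptions over libraries that fall into 3 groups, and carry no test.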

How the data were processed

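The deposited values are raw counts, 1 file per library and 1 whole number per gene. The design text names single-cell RNA sequencing and the title bulk, and each file was treated as 1 bulk library. Per the labels' protocols, RNA was extracted with TRIzol and sequenced as a barcoded pool, and per the submitters' processing notes mm10 was used. What aligner and counter were used, whether strand was read and whether molecular identifiers were collapsed is not given in the sources used here. Groups and replicate numbers came from the sample titles; nothing says that libraries came from separate cultures, so p-values measure only the spread between libraries, which may be technical. Replicates differed beyond counting noise (chi-square per degree of freedom 18.7 to 27.7). A floor of 3 counts equals 0.099 to 0.366 CPM on the TMM scale and covers counting error only. A row for eGFP held 3 counts in all.

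Genes were kept by edgeR's filterByExpr (minimum count 10, minimum total 15; 12755 genes), scaled by TMM and fitted with glmQLFit and a mean per group over all 6 libraries (edgeR 4.0.16, R 4.3.3). SE is the log2 fold change divided by the root of the F statistic, and intervals are 95%. Alternatives used DESeq2 1.42.0, limma 3.58.1, other scalings and filters, a replicate block, thinning and leaving out libraries. All 10 genes are named; of other lists, up to 4 called genes with the smallest 6 h p were named. The genes and lists were chosen with earlier results of these data known.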

Additional observations from a re-analysis of the deposited data

Results flagged for a closer look

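Id1 is listed here because its response after 6 h differed from that after 3 h by a direct test. Its effect at 6 h minus that at 3 h was -0.858 on the log2 scale (edgeR adjusted p = 0.00988), with both 6 h libraries (282 and 288 CPM) below both 3 h libraries (496 and 538 CPM). The call was lost without any 1 of the 4 treated libraries (adjusted p = 0.0812 to 0.118, log2 values -0.91 to -0.80), and kept when libraries were thinned to the smallest total count.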

How the results depend on the processing

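Across 18 alternatives, 514 of 540 readings of the 10 genes kept direction and side of the threshold, 13 lost a call, 7 gained one and 6 changed sign, all 6 among values that were not called. The sign changes were Id1 at 3 h (0.052), Smad5 at 3 h (0.067) and Smad6 from 3 h to 6 h (0.027) with library size alone, Smad5 at 3 h (0.076) without control replicate 1, and Id3 (-0.058) and Smad6 (0.18) from 3 h to 6 h without 6 h replicate 1. Leaving out 1 library each gave -0.348 to 0.076 for that Smad5 value, -0.058 to 0.105 for Id3 and -0.44 to 0.18 for Smad6. The calls of Id2, Id3, Id4, Smad1, Bmp4 and Id1 at 6 h, and of Id2 and Id3 at 3 h, were kept in all 18. Called genes at 3 h numbered 625, but 1373 with library size alone, 1816 with no filter, 1447 by DESeq2, 218 from the 4 libraries compared and 108 to 1033 leaving out 1 library. At 6 h they numbered 3704, and 1313 to 3578 leaving out 1. Between 3 h and 6 h they numbered 209, but 1063 with no filter, 688 by DESeq2, 508 by limma-voom, 126 with the replicate block, 563 from the 4 libraries and 14 to 595 leaving out 1. Of the 10 genes, 2 to 4 were called at 3 h, 6 to 9 at 6 h and 0 to 1 between them when leaving out 1 library; between them no filter and DESeq2 gave 2, with Bmp4 added. Of the other pathway genes, 6 were called at 3 h, but 14 with library size alone, 19 with no filter, 13 by DESeq2 and 1 to 11 leaving out 1. At 6 h 8 to 27 were called leaving out 1, and between the times 11 with no filter, 8 from the 4 libraries and 1 to 8 leaving out 1, against 5. The cause was not tested, other than that leaving out a library leaves fewer samples, where the lone library is assumed to vary like the other groups. The replicate block kept all 30 readings of the 10 genes and gave 425 and 3547 called genes at 3 h and 6 h. Same-numbered libraries' deviations correlated at 0.0942, -0.0243 and 0.0172, which shows no strong effect shared by number. These values cannot tell whether same-numbered libraries came from 1 culture or day, and the sources used here do not say. Readings of other pathway genes under these settings were chosen after seeing the data. Depth limits Bambi and Smad6 most, with 26 to 277 counts per library.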
